A study of Drosophila melanogaster with 3 samples.

Results

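Of the 5464 reproducible Jarid2-GFP peaks in whole Drosophila melanogaster embryos, 1939 had their summit 0 to 100 bp downstream of the start of a protein-coding transcript, on that gene's strand. That was 35.5% of the peaks, with an exact 95% binomial interval of 34.2 to 36.8%, which covers counting error only. Among the 5464 strongest peaks of replicates 1, 2 and 3, the share was 36.48, 33.77 and 31.97% (34.07 ± 2.27%, SD, n = 3). Replicates 2 and 3 lay below that interval, so it understates the spread between samples. The downstream-proximal peaks are called members here. They were found from the summit of each peak in the dm6 list of peaks that passed the authors' IDR threshold, a measure of agreement in rank between replicates, and from the nearest coding start of any isoform in Ensembl release 115 (BDGP6.54, in dm6 coordinates). That list held the same peaks as the 5464 strongest of the authors' list for the pooled replicates. It is thus a cut on pooled signal, and the name reproducible does not mean that each peak agreed between replicates. Signal had no part in the choice beyond that threshold. The other reproducible peaks fall into 4 classes by the place of the summit relative to the nearest coding start. Farther-downstream peaks (679) have it over 100 and up to 1000 bp downstream, just-upstream peaks (375) 1 to 100 bp upstream, farther-upstream peaks (793) over 100 and up to 1000 bp upstream, and distal peaks (1678) over 1000 bp from any coding start. The first 3 of these are together called other promoter peaks.

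The study had 1 group, 3 biological replicates of mixed-sex embryos aged 0 to 24 h, from a transgenic line with GFP fused to the C terminus of Jarid2. Chromatin was sonicated to 200 to 800 bp and precipitated with an antibody to GFP, followed by sequencing. Whole embryos mix all cell types and ages in that window, and a peak present in few cells cannot be told apart from one that is weak in all. Embryos without the fusion protein, control libraries and read depths were not analysed here. The peaks' signal is on a scale of its own in each list, so signal is compared only within a list.

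Jarid2 is a cofactor of Polycomb repressive complex 2, which methylates histone H3 at lysine 27 and helps keep developmental genes silent. The stretch just downstream of a transcription start is where RNA polymerase II often pauses before it elongates, above all at developmental and signalling genes of the fly embryo. Start sites are placed by short core promoter elements, among them the initiator at the start itself, the TATA box upstream of it and the downstream promoter element, and many paused promoters also carry GAGA motifs, bound by the GAGA factor Trl, and pause-button words downstream of the start.

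Strong members are printed first, to show the letters on which the motif counts rest. All sequence is from the Release 6 reference genome, in dm6 coordinates, read 5′ to 3′ on the gene's strand. For 6 genes the 50 bases from 30 bp before to 19 bp after the annotated start are given, and capitals mark a match to an initiator word, TCAGT or TCATT. Of the 6, caps and kuz have no such match in the stretch shown. The windows are dlp at chr3L:14632571-14632620 (plus strand), path at chr3L:9505309-9505358 (minus), caps at chr3L:13228662-13228711 (plus), robo2 at chr2L:1420434-1420483 (minus), comm at chr3L:15728411-15728460 (minus) and kuz at chr2L:13550109-13550158 (plus).
dlp: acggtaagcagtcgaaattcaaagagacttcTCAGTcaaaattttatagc
path: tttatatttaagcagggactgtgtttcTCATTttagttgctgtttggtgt
caps: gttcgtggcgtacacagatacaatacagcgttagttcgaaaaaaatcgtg
robo2: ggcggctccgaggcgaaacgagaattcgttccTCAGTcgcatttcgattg
comm: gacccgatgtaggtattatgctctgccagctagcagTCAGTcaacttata
kuz: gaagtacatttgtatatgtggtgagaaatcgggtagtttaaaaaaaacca

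For the next 4 genes the 30 bases around the summit itself are given, all just downstream of the start, and capitals mark a pause-button word (CG, then A or G, then A or T, then CG). Only the InR window holds one. The windows are FER at chr3R:9394470-9394499 (minus strand), InR at chr3R:21619252-21619281 (minus), bab2 at chr3L:1177202-1177231 (minus) and rho at chr3L:1463827-1463856 (plus). They begin 47, 40, 45 and 16 bp downstream of the respective starts.
FER: cctgctttcaatattccccgatttccggac
InR: CGGTCGccgtgaattggaattgtgagtgtg
bab2: ttttacggccactgaaagccagcaacaaca
rho: gcgagccgcgagcgcgagatcatcaaactg

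The member summits were not spread evenly over the positions the rule admits. Their median distance from the start was 57 bp, with quartiles at 39 and 71 bp, and 1155 of them (59.6%) lay 40 to 79 bp downstream. The fullest 10 bp stretch was 50 to 59 bp, with 340 summits, while 7 summits lay on the annotated start base. When the rule was applied to the 5464 strongest peaks of each replicate on its own, the median distances were 58, 54 and 60 bp (57.3 ± 3.06, SD, n = 3), so the replicates differed from each other by a few base pairs. In all 4 lists the numbers fell off on both sides of this stretch, and the plot shows no accumulation of like height upstream of the start. Within 300 bp upstream the reproducible list held at most 59 summits per 10 bp, at 1 to 10 bp. At 111 to 150 bp upstream it held 34 to 42 per 10 bp.

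**Figure D1:**
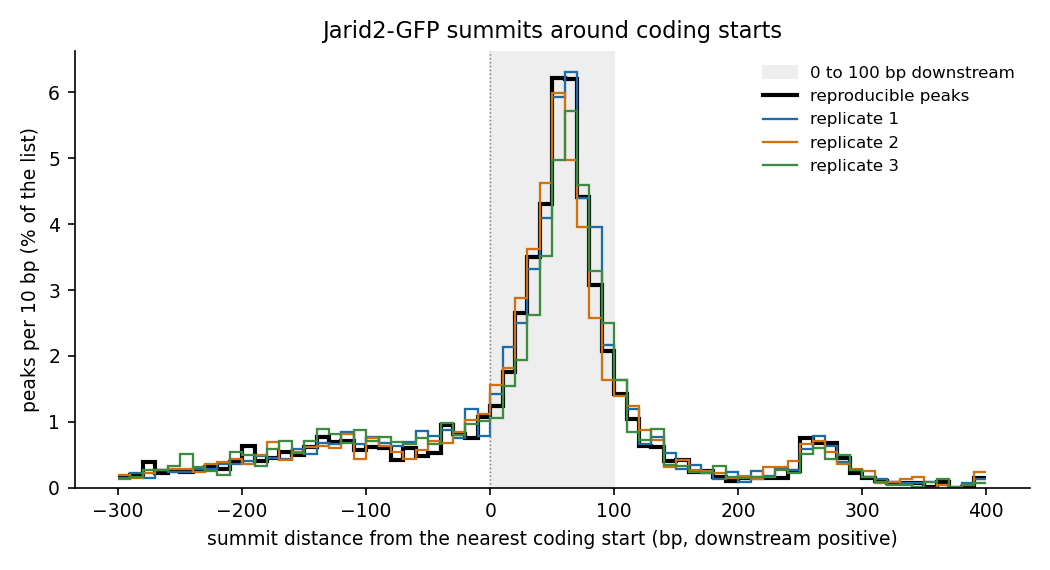
Share of each list's peaks per 10 bp of summit distance from the nearest coding start, with downstream positive, for the reproducible peaks (black) and the 5464 strongest peaks of each of the 3 replicates (coloured lines). Grey shading marks 0 to 100 bp downstream; the replicate medians inside it are 58, 54 and 60 bp, and a low second rise lies 240 to 299 bp downstream.

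The second, low rise in the plot of summit distances belonged to the same promoters. Of the 166 reproducible summits 240 to 299 bp downstream of a start, 146 (88.0%) had a member at that same start, and the member was the stronger of the pair in 143. The pairs lay a median of 202 bp apart, with quartiles of 200 and 206 bp, and the downstream summit had a median of 27.7% of its member's signal. In the replicates 135 of 161, 142 of 163 and 121 of 139 such summits had a member at the same start. In the whole reproducible list no 2 summits lay closer than 199 bp, and 904 peaks had their nearest neighbour 150 to under 250 bp away. These secondary summits are counted among the farther-downstream peaks, and values without them are given where they bear on a comparison.

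The distance of a summit from the start was narrower among strong members. In the reproducible list the 484 strongest members had an interquartile range of 20.25 bp (quartiles 48 and 68.25 bp), and the 487 weakest one of 43 bp. In the replicates the interquartile range was 22, 24 and 23 bp in the strongest quartile of members (23 ± 1 bp, SD, n = 3), against 43, 42.75 and 42.5 bp in the weakest (42.75 ± 0.25 bp). The 2 sets of 3 values did not overlap. Both spreads are bounded by the 0 to 100 bp of the rule, so they are given as a description, with no test. The median distance was 59.3 ± 2.08 bp in the strongest quartile and 54.5 ± 4.27 bp in the weakest.

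Anchoring on the initiator hardly changed the spread of the distances. Among the 767 members whose start carried exactly 1 initiator word within 10 bp, the A of the word lay a median of 2 bp downstream of the annotated start and the summit a median of 54 bp downstream of the A, with an interquartile range of 28.5 bp, against 27 bp when measured from the annotated start. In the replicates the medians from the A were 56, 52 and 59 bp. The interquartile ranges from the A were 27, 30 and 27 bp, against 27, 29 and 28 bp from the annotated start.

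Members made up most of the strongest peaks. In the reproducible list 89 of the 100 strongest peaks were members, and in the replicates 87, 89 and 75 of 100 (83.7 ± 7.57, SD, n = 3). Replicate 3 stood lower, and it held 11 farther-upstream peaks among its 100 strongest where replicates 1 and 2 held 1 and 0. The share of members then fell with rank in all 3 replicates. It was 72.6 ± 7.43% over the next 400 peaks, to rank 500, then 57.9 ± 1.94% to rank 1000, 42.5 ± 3.10% to rank 2000 and 16.6 ± 2.09% between ranks 4000 and 5464. Beyond the length of the reproducible list it was 8.97 ± 0.840% to rank 10000 and 2.09 ± 0.230% over the last 10000 peaks, to rank 30000. Positions 0 to 100 bp downstream of any coding start cover 1.42% of the bases of the 6 chromosomes used.

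**Figure D2:**
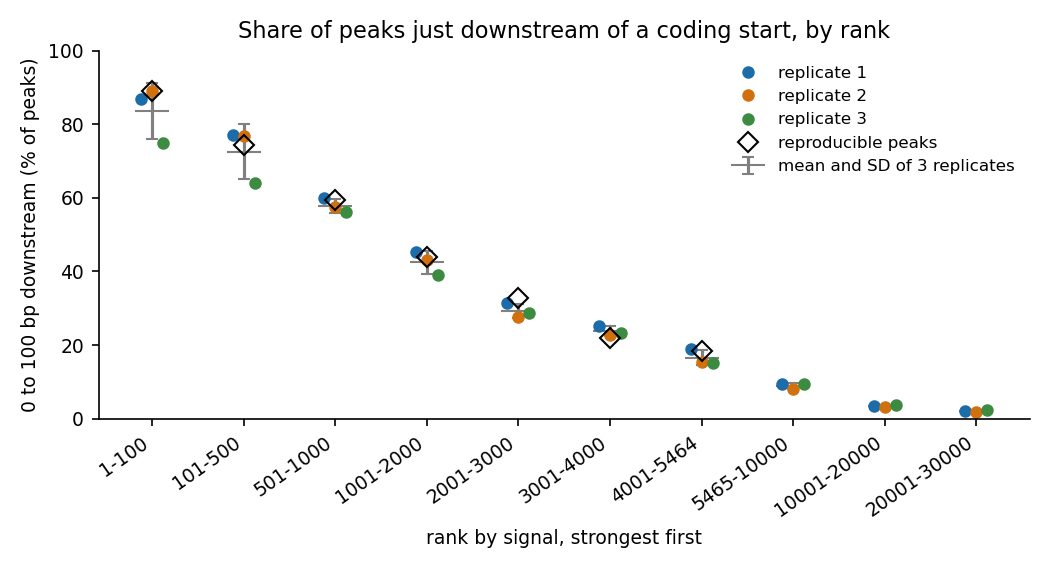
Percent of peaks with a summit 0 to 100 bp downstream of a coding start, by rank of signal (strongest on the left), in each replicate (dots), as their mean and SD (grey bars, n = 3) and in the reproducible list (diamonds, which end at rank 5464). The share is 75 to 89% among the 100 strongest peaks and 2.09 ± 0.230% in the last of the rank ranges.

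The median signal of the members in the reproducible list was 447.6, and their quartiles were 274.9 and 829.9. The medians of the other classes were 262.5 for farther-downstream, 273.7 for just-upstream, 291.4 for farther-upstream and 237.2 for distal peaks. Classified on their own, the replicates gave ratios of the median signal, members over each of these classes in turn, of 1.65 ± 0.0675, 1.61 ± 0.0290, 1.52 ± 0.113 and 1.86 ± 0.0864 (SD, n = 3). Members were above each other class in all 3 replicates.

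Expressed as a percentile of rank within a list, where 100 is the strongest, the median member stood at 70.2, 72.7 and 70.4 in replicates 1 to 3. Farther-downstream peaks stood at 44.2, 43.7 and 43.0, and just-upstream peaks at 44.8, 47.1 and 44.1. The groups of 3 values did not overlap. The members' median was 27.4 ± 1.52 percentile points above that of farther-downstream peaks and 25.7 ± 0.503 points above that of just-upstream peaks (exact two-sided permutation test over replicates, p = 0.25 for each, higher in 3 of 3 replicates). With 3 replicates 0.25 is the smallest p this test can give, here and in every such test that follows, so a p of 0.25 says only that the 3 replicates had one sign. The replicates are compared as samples because peaks of one library are not replicates. Without peaks that had a stronger summit within 300 bp, which takes out the secondary summits, the differences were 27.1 and 24.9 points. Against farther-upstream peaks the difference was 21.7 ± 3.52 points, and against distal peaks 37.0 ± 1.74 points, each higher in 3 of 3 replicates (exact permutation p = 0.25).

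**Figure D3:**
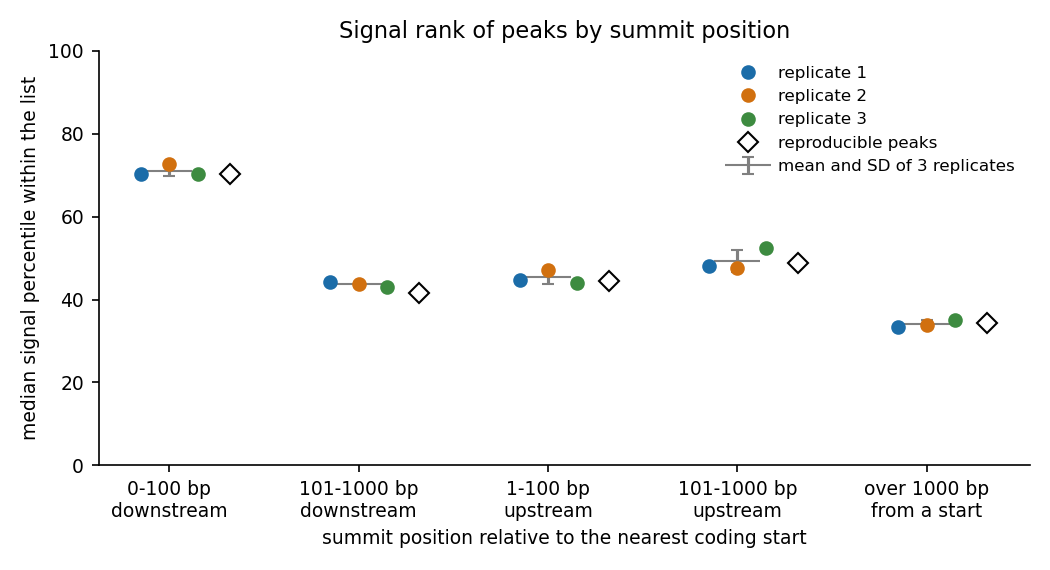
Median percentile of signal rank within each list (100 is the strongest peak) for 5 classes of summit position relative to the nearest coding start, in each replicate (dots), as their mean and SD (grey bars, n = 3) and in the reproducible list (diamonds). Peaks 0 to 100 bp downstream have medians of 70.2 to 72.7 in the replicates, above the other 4 classes, whose replicate medians lie between 33.3 and 52.3.

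Signal also depended on where between 0 and 100 bp a summit lay. In the replicates the median percentile was 55.6 ± 1.27 at 0 to 19 bp, 66.7 ± 4.08 at 20 to 39 bp, 76.7 ± 1.91 at 40 to 59 bp, 76.7 ± 0.624 at 60 to 79 bp and 64.6 ± 2.07 at 80 to 100 bp (SD, n = 3). The 2 middle stretches were above the first and the last in all 3 replicates. At the limits of the rule, the 3 reproducible peaks at 100 bp had a median signal of 521 and the 10 peaks on the next base one of 512. At the near limit the 7 peaks at 0 bp had a median of 602 and the 7 peaks at 1 bp downstream one of 258, and the 13 peaks at 1 bp upstream one of 257 and the 4 at 2 bp upstream one of 350; with so few peaks a base these medians vary widely. Just inside the far limit, the strongest peaks were those of Psc at 99 bp (signal 3368), kek2 at 99 bp (1052) and CG8312 at 98 bp (956), and just outside it those of Drak (1345), Gdap2 (813) and Mgat2 (764), 1 to 3 bp beyond it.

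The 10 strongest members were the 9 strongest peaks of the list and its 11th. Su(z)2 and Psc, neighbouring genes on 2R that encode related RING finger proteins of the Polycomb group, had the highest signal, 3517 and 3368. For Su(z)2 the replicate signals were 1031, 1612 and 938, at ranks 1, 2 and 2, and the summits lay 54, 25 and 45 bp downstream of a start. For Psc they were 850, 1677 and 745, at ranks 4, 1 and 10, with summits 84, 99 and 91 bp downstream. Both genes ranked among the 10 strongest peaks of each replicate, though Psc sits at the edge of the range that defines the members.

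The next strongest members lay at pk, a planar cell polarity gene, and dlp, which encodes a glypican that binds Wnt and Hedgehog ligands at the cell surface. At dlp the replicate signals were 857, 1307 and 846, at ranks 3, 5 and 4, and the summits lay 54, 53 and 50 bp downstream of the start printed above. At pk they were 964, 1368 and 801, at ranks 2, 4 and 7, with summits 56, 50 and 56 bp downstream. Replicates placed both summits within 6 bp of each other.

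After path, at rank 5, came 3 axon guidance genes at ranks 6, 7 and 8. At caps, whose leucine-rich repeat protein takes part in cell recognition, the replicate signals were 847, 1115 and 841 at ranks 5, 16 and 6, and the summits lay 62, 59 and 62 bp downstream. At robo2, which encodes a receptor for Slit, they were 768, 1257 and 708 at ranks 11, 6 and 14, with summits 37, 43 and 37 bp downstream. At comm, whose product regulates the delivery of Robo to the cell surface, they were 746, 1235 and 743 at ranks 13, 8 and 11, with summits 76, 66 and 68 bp downstream. Summits at these 3 genes shifted by 3 to 10 bp between replicates.

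The remaining 3 of the 10 strongest members were path, which encodes an amino acid transporter, kuz, which encodes an ADAM metalloprotease that cleaves Notch, and FER, which encodes a cytoplasmic tyrosine kinase. Their signals were 3016, 2736 and 2705 in the reproducible list. Their replicate summits spanned 20, 4 and 19 bp, and each gene stood within the 20 strongest peaks of all 3 replicates.

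The strongest member on the X chromosome was that of Inx2, a gap junction gene, at rank 47. It ranked 53, 72 and 38 in the replicates, with summits 63, 59 and 65 bp downstream. On chromosome 4 the strongest was that of zfh2, which encodes a zinc finger homeodomain factor, at rank 306. It ranked 287, 334 and 402 in the replicates, with summits 53, 46 and 52 bp downstream, and its summit lay in an intron. Members had a start at 4 of the 80 coding genes of chromosome 4 (5%) and at 250 of the 2196 on X (11.4%), against 12.5 to 14.3% of the genes on the 4 large autosome arms. In the replicates these shares were 5.42 ± 1.44% on chromosome 4, 11.1 ± 0.671% on X and between 12.01 ± 0.724% (3R) and 13.7 ± 1.43% (2R) on the arms (SD, n = 3).

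Most members were found again in each replicate. A member counts as held by a replicate when that replicate had a summit within 200 bp among its own 5464 strongest peaks. By this count 1592 members (82.1%) were held by all 3 replicates, 241 by 2, 97 by 1 and 9 by none, where 68.2% of all reproducible peaks were held by all 3. The reproducible list was made from these replicates, so this is not independent support. The difference in support went with signal. Among peaks ranked 1 to 1366, 99.6% of members and 95.8 to 100% of the other classes were held by all 3 replicates, and among those ranked 4099 to 5464 the values were 11.3% and 11.0 to 15.5%. No test of the difference within rank ranges was made.

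Over all ranks, summits of members lay closer together between replicates than those of other classes. The range over 3 replicate summits had a median of 26 bp for members and 35 bp for all reproducible peaks, and 46 bp for distal peaks. Among peaks ranked 1 to 1366 the median was 17 bp for members and 21.5 to 31 bp for the other classes. In the lower ranks members were not always the closest: at ranks 1367 to 2732 their median was 32 bp against 28 bp for farther-downstream peaks, and at ranks 4099 to 5464 it was 56 bp against 42 bp. From the reproducible summit to the partner in replicates 1, 2 and 3, the median shift along the gene was 0, 0 and 1 bp. In 414 of the 1899 members with a summit in all 3 permissive replicate lists (21.8%) the replicate summits spanned more than 50 bp, against 1907 of 5261 reproducible peaks (36.2%). The strongest of these was Hs6st, a heparan sulphate sulphotransferase gene, with summits 60, 120 and 62 bp downstream in replicates 1 to 3. The others named by the rule were nmo, aus, RhoU and Sdc, which spanned 56 to 64 bp.

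The strongest members that were not held by all 3 replicates were Lpin, a phosphatidate phosphatase gene, at rank 756, and the Hox gene Abd-B, at rank 1015. Lpin had no summit within reach in replicate 3, and Abd-B none in replicate 2. CG6966, Oatp74D and CG10527 followed at ranks 1359 to 1444. The 5 weakest members, at Sema1b, Nmdar1, nab, cnn and east, had signals between 168.397 and 168.735 in the reproducible list and were held by 0 to 2 replicates.

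The members belonged to 1815 coding genes, and 44 lay equally near the starts of 2 genes. Of these genes, 144 had more than 1 member, at alternative starts. Svil, which encodes an actin-binding supervillin protein, had 7, at distances of 32 to 77 bp from 7 starts, with ranks from 465 to 4988. sick had 5, and SNF4Agamma, a subunit of AMP-activated kinase, and ps, an RNA-binding splicing regulator, had 4 each.

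Genes with a member were longer and had more starts than other coding genes. Their median length from the first to the last annotated base was 11.4 kb (quartiles 4.49 and 27.9 kb), against 4.07 kb for the 1067 genes whose only promoter peaks were in the other 3 promoter classes and 1.81 kb for the 11063 genes with neither. They had 2.03 annotated starts each on average, against 1.76 and 1.27, and 46.5% of them had only 1 start, against 54.9% and 79.7%. More starts per gene give a gene more chances to be counted, and the part of this in the lengths was not tested.

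Nearly all members lay in transcribed, untranslated sequence. Of the 1939 summits, 1851 (95.5%) fell in a 5′ UTR, 44 in coding sequence, 43 in an intron of the transcripts annotated there and 1 in a 3′ UTR. A point 57 bp downstream of every annotated coding start falls in a 5′ UTR in 79.4% of cases and in coding sequence in 16.4%. Head-to-head neighbours were less frequent at member starts. A coding start of another gene on the other strand stood within 500 bp upstream of 10.6% of member starts. The share was 33.9% for just-upstream peaks, 17.1% for farther-downstream peaks and 22.7% of all coding starts. This counts starts, since the rule places every member summit at or downstream of its own start.

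Core promoter words were frequent at member starts. An initiator word within 10 bp of the start was found at 833 of 1939 member starts (43.0%), against 17.4% of the 19253 distinct coding starts and 14.4% of the 14317 with no reproducible summit within 1000 bp. For the starts nearest to the other 3 classes of promoter peak the share was 16.8 to 23.5%. In the replicates it was 40.9, 42.5 and 42.8% at member starts and 19.9, 20.6 and 19.3% at starts of other promoter peaks. The difference of 22.1 ± 1.24 percentage points was of one sign in 3 of 3 replicates (exact two-sided permutation test over replicates, p = 0.25). All replicates were read against the same genome, so the SD measures which peaks each list contained. The reproducible list gave 455 farther-downstream, 375 just-upstream and 612 farther-upstream starts. Replicates 1 to 3 gave 1445, 1389 and 1557 starts of other promoter peaks. The 679 farther-downstream and 793 farther-upstream peaks outnumber their starts, so not every such peak has a start of its own in the word comparisons. The effect on the differences was not tested.

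The downstream promoter element, searched 24 to 36 bp downstream as A or G, then G, then A or T, then C or T, was found at 46.5% of member starts and 29.3% of all coding starts. Pause-button words, searched 10 to 60 bp downstream, were found at 22.0% and 6.95%. Both searches read the transcribed strand, and pause-button words whose first A or G is G contain a word of the downstream element, so that the counts overlap. In the replicates members exceeded the starts of other promoter peaks by 15.04 ± 1.05 points for the downstream element and by 12.6 ± 1.57 points for pause-button words, each in 3 of 3 replicates (exact permutation p = 0.25).

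A TATA box, TATAAA 45 to 15 bp upstream on the transcribed strand, was less frequent at member starts (5.36%) than over all coding starts (7.77%), though more frequent than at starts of other promoter peaks (5.07 ± 0.181% against 2.82 ± 0.322% in the replicates, exact permutation p = 0.25). That difference was 2.26 points, and 1.20 points with replicate lists of doubled length. For the polypyrimidine initiator of translation genes, searched as CTTTT or CTTTC from 5 bp upstream to 10 bp downstream, the replicate values were 5.60 ± 0.320% at member starts and 6.02 ± 0.395% at starts of other promoter peaks. The GAGA motif, GAGAG on either strand, stood mostly on the upstream side. It occurred in the 100 bp before 38.0% of member starts and in the 100 bp from the start on in 16.9%, where all coding starts had 15.3% and 11.5%. On the upstream side members exceeded the starts of other promoter peaks by 14.6 ± 0.684 points in the replicates (3 of 3, exact permutation p = 0.25).

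**Figure D4:**
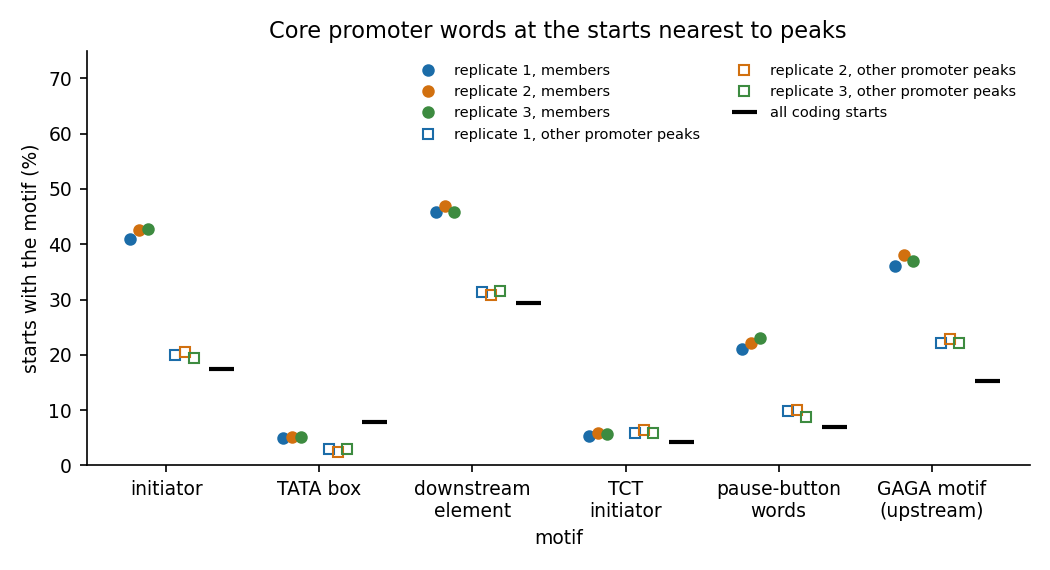
Percent of starts with each core promoter word, for member starts (filled circles) and the starts nearest to other promoter peaks (open squares) in each of the 3 replicates, and for all 19253 coding starts (black bars). Filled circles lie above the squares for the initiator (40.9 to 42.8% against 19.3 to 20.6%), the downstream element, pause-button words, the upstream GAGA motif and the TATA box, and not for the TCT initiator.

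Some of these words varied with signal among the members. Pause-button words stood at 31.0 ± 0.794% of starts in the strongest quartile of members in the replicates and at 14.6 ± 1.61% in the weakest, a difference of 16.4 ± 1.53 points. Initiator words stood at 46.7 ± 0.420% and 33.3 ± 3.73%, and the downstream element at 51.3 ± 1.05% and 41.5 ± 0.685%. All 3 differences had one sign in 3 of 3 replicates (exact permutation p = 0.25 each). In the reproducible list the median signal was 599 for the 427 members with a pause-button word and 415 for the 1512 without. The TATA box (3.86 ± 0.581% and 4.32 ± 0.789%) differed by less than the spread between replicates.

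Around the summits themselves, motifs were searched within 100 bp on either side and on either strand. The members held GAGAG in 33.8%, against 30.1% of other reproducible peaks and 21.9% of all coding starts at the same distance. By class, the share was 33.2% in farther-upstream peaks, close to that of members. It was 29.98% in distal, 29.5% in farther-downstream and 25.3% in just-upstream peaks. The difference from farther-upstream peaks alone was not tested over replicates. In the replicates the difference from other peaks was 3.72 ± 1.62 points, of one sign in 3 of 3 (exact permutation p = 0.25). It rested on the setting: it was 0.123 points (exact permutation p = 1) with the most upstream start of each gene, 0.199 points (p = 0.75) within 50 bp of the summit and 11.3 points within 150 bp. GCCAT, the core of the site of the Polycomb recruiter Pleiohomeotic, was found in 24.1% of members, 29.6% of other peaks and 32.2% of all coding starts at that distance, and the replicate difference was −5.88 ± 1.47 points (3 of 3, exact permutation p = 0.25). The GTGTGT repeat bound by Combgap was found in 21.9% of members, against 29.7% of farther-downstream and 16.3% of just-upstream peaks, and the replicate difference from all other peaks was 2.44 ± 2.00 points (3 of 3, exact permutation p = 0.25). It was 0.288 points (exact permutation p = 1) with the most upstream starts, 0.954 points (p = 0.5) within 50 bp of the summit and 1.29 points without replicate 3.

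Motifs known from housekeeping promoters were less frequent at member summits than at just-upstream peaks, but in the reproducible list not less frequent than over all other peaks. The DNA replication-related element TATCGATA was found in 30 of 1939 members (1.55%), 1.53% of all other peaks and 8.80% of just-upstream peaks, with 4.31% for all coding starts at the members' distance. It was found in 0.736% of farther-downstream, 1.77% of farther-upstream and 0.119% of distal peaks. In the replicates its share was 1.64 ± 0.135% in members and 8.87 ± 1.97% in just-upstream peaks, a difference of −7.23 ± 1.98 points (exact permutation p = 0.25, lower in 3 of 3 replicates). The E-box CAGCTG was found in 9.08% of members, 8.91% of all other peaks and 17.6% of just-upstream peaks, with 12.7% for all coding starts at the members' distance. Motif 1, GGTCACACT, was found in 2.84% of members, 0.738% of all other peaks and 4.80% of just-upstream peaks, with 3.76% for all coding starts. In the replicates the members' share of Motif 1 differed by 2.20 ± 0.332 points from all other peaks and by −1.27 ± 0.590 points from just-upstream peaks. Each difference had one sign in 3 of 3 replicates (exact permutation p = 0.25). Windows centred on the summits cover different stretches relative to the start in members and just-upstream peaks. The part of this in the differences was not tested. The Zelda word CAGGTAG was found in 12 members (0.619%), 1.16% of other peaks and 1.04% of all coding starts at the members' distance. TGAGTG of Zeste was found in 11.8% of members and 11.6% of other peaks. In the replicates the difference went the other way, at −0.548 ± 0.191 points (lower in members in 3 of 3, exact permutation p = 0.25). Mean GC content over the same windows was 47.7% in members, 38.1 to 44.0% in the other classes and 43.5% in all coding starts at the same distance; its part in the motif shares was not tested.

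The motif content of the summits also changed along the members' signal. From the strongest to the weakest quartile in the replicates, GAGAG went from 38.3 ± 1.70% to 29.5 ± 0.879% and GTGTGT from 27.4 ± 1.91% to 18.2 ± 1.91%. In the other direction, GCCAT went from 17.8 ± 0.281% to 27.9 ± 1.75%, TATCGATA from 0.139 ± 0.121% to 2.86 ± 0.709% and CAGCTG from 8.10 ± 0.123% to 12.6 ± 0.453%. Every one of these differences had the same sign in 3 of 3 replicates (exact permutation p = 0.25).

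Over all 13945 coding genes, 13.0% owned the start of a member, and the gene lists fell on both sides of that share. The lists were chosen with earlier results of these data known and are described by counts alone. The largest share was that of axon guidance and cell adhesion genes, of which 32 of 39 had a member (82.1%; replicates 84.6, 74.4 and 69.2%). Besides caps, robo2 and comm these include comm2, trn, Dscam1, a homophilic receptor of neurons, and Fas3, an adhesion molecule, at ranks 55 to 93. Their median summit distance was 61.5 bp.

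Of 51 genes for signalling ligands, receptors and modulators, 35 had a member (68.6%; replicates 68.6, 64.7 and 68.6%). The strongest besides kuz were InR, the insulin receptor gene, at rank 12, and rho, which encodes the rhomboid protease that activates ligands of the EGF receptor, at rank 15. At InR the replicate signals were 752, 1234 and 676 with summits 52, 66 and 55 bp downstream, and at rho they were 718, 1163 and 623 with summits 31, 31 and 20 bp downstream. Both genes ranked within the 30 strongest peaks of each replicate.

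Of 10 heparan sulphate proteoglycan genes 6 had a member, among them dally, a second glypican gene, at rank 65, whose replicate summits lay 51, 50 and 51 bp downstream. Of 14 ecdysone response genes 10 had one, led by the nuclear receptor gene Eip78C at rank 107 and E23, an ABC transporter gene, at rank 180. Of 21 genes known for paused polymerase 10 had one in the reproducible list, and 10 in each of the replicates. Beside rho these were led by ush, a cofactor of GATA factors, at rank 141, and Delta, the Notch ligand, at rank 298. In the reproducible list 7 more had only promoter peaks at other distances, among them Hsp22, Hsp27 and Hsp83. Of those with a member, rho, Delta, sog, brk and ths are also on the signalling list, so the 2 lists overlap.

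Developmental regulator genes known as Polycomb targets, most of them for transcription factors but also those of the ligands wg and hh, had a member in 36 of 69 cases (52.2%; replicates 46.4, 42.0 and 43.5%), and 22 more had only promoter peaks at other distances. The strongest was bab2, a BTB factor gene, at rank 14, with replicate signals of 728, 1160 and 677 and summits 55, 59 and 67 bp downstream. The segmentation gene hry followed at rank 22 and ct, a homeobox gene, at rank 109. The median distance was 42 bp in the reproducible list and 44.5, 33 and 56.5 bp in the replicates (44.7 ± 11.8 bp, SD, n = 3). The value of replicate 3 lay within the 54 to 60 bp of all members, so the ranges overlapped. Of 22 Polycomb group genes 6 had a member, which were Su(z)2, Psc, jing, Kdm2, ph-d and E(z).

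**Figure D5:**
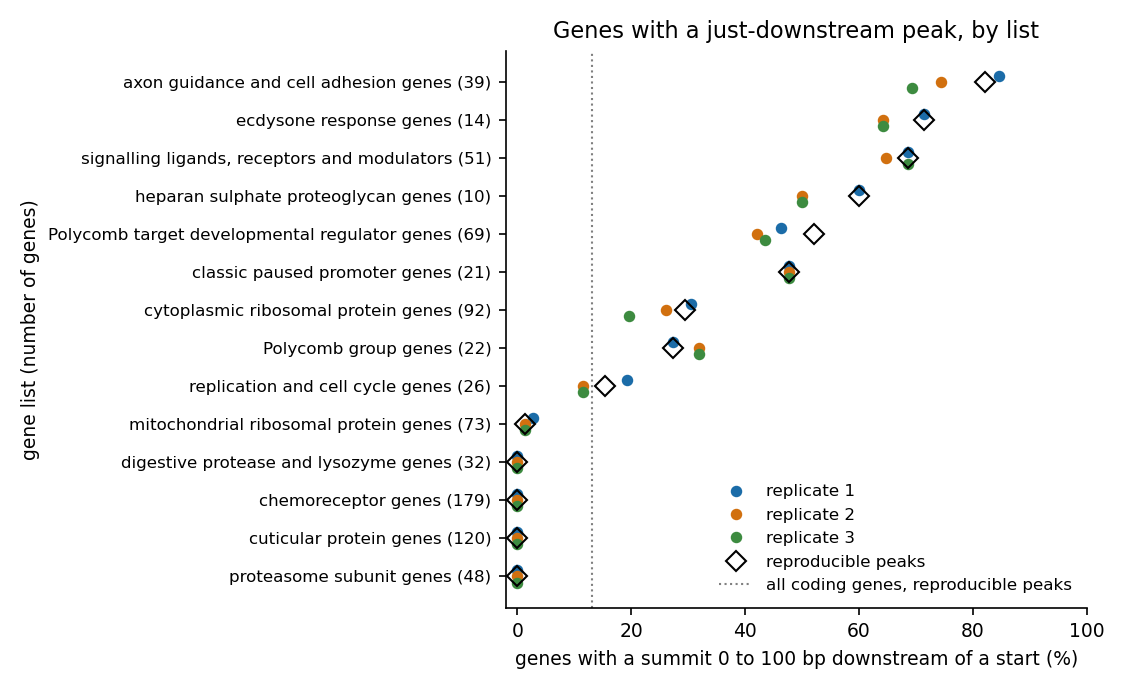
Percent of the genes of each list with a summit 0 to 100 bp downstream of one of their starts, in each replicate (dots) and in the reproducible list (diamonds), with the number of genes in brackets. The dotted line is the 13.0% of all coding genes; axon guidance genes are at 82.1% and 4 lists are at 0.

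The lists of housekeeping and late differentiation genes behaved unlike each other. Among genes for cytoplasmic ribosomal proteins 27 of 92 had a member (29.3%; replicates 30.4, 26.1 and 19.6%), and 35 more had only promoter peaks at other distances. Their summits lay near the start, at a median of 23 bp in the reproducible list and at 17.5, 27.5 and 29 bp in the replicates (24.7 ± 6.25 bp, SD, n = 3), against 57.3 ± 3.06 bp for all members. The replicate medians of the list and of all members did not overlap. RpS27, the strongest at rank 362, had its summit 2 bp downstream in the reproducible list and 12, 4 and 1 bp upstream in the replicates, so it met the rule in none of them. RpL7 followed at rank 415, with summits 37, 32 and 32 bp downstream.

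Of 73 mitochondrial ribosomal protein genes only mRpL23 had a member in the reproducible list, at rank 573 (1.37%; replicates 2.74, 1.37 and 1.37%). Of 26 replication and cell cycle genes 4 had one (15.4%; replicates 19.2, 11.5 and 11.5%), near the 13.0% of all coding genes; they were dap, stg, E2f1 and CycB3. The G1 inhibitor gene dap stood at rank 732, and the mitotic phosphatase gene stg at rank 1948, where its replicate ranks were 1519, 1562 and 3913. No member lay at any of 48 proteasome subunit genes, 179 odorant, gustatory or ionotropic receptor genes, 120 genes for cuticle proteins or 32 for digestive proteases and lysozymes. This held in the reproducible list and in the 5464 strongest peaks of each replicate.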

How the data were processed

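The 3 biological replicates are chromatin immunoprecipitations of Jarid2-GFP from whole embryos. Per the deposited notes, the authors called a permissive peak list per replicate and for the pooled replicates, each against a control alignment, and derived the IDR-thresholded list from them; aligner, peak caller and versions are not given in the sources used here. The signal value of each peak, assigned by the authors in the deposited lists on each list's own scale, was the unit used. Read depth is unknown. Replicate numbers are those of the labels; where separate embryo collections are not stated, p-values measure only the spread between these samples.

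The dm6 lists were used, on 6 chromosomes, with Ensembl release 115 annotation and the Release 6 genome, whose chromosome lengths fit the peaks. Summits were assigned to the nearest coding start over all isoforms. Each replicate was cut to its 5464 strongest peaks of 30000 and classified anew. Differences were tested over the 3 replicates by exact two-sided sign-flip permutation. Binomial intervals are exact and cover counting error only. Motifs were searched as exact words. Placing, matching and the permutation test were checked on simulated peaks. Python 3.11.15, numpy 2.4.6, scipy 1.17.1 and matplotlib 3.10.9 were used.

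The members and gene lists were chosen with earlier results of these data known. Named genes are the 10 strongest members, the strongest on each chromosome, up to 3 per gene list, the 5 weakest, the 3 strongest at 98 to 100 bp and at 101 to 103 bp, the 5 strongest not held by all replicates and the 5 strongest with replicate summits over 50 bp apart; others named from gene lists or for several members were chosen after their values were seen. In the gene lists, the symbols fat, Dl, Toll and thisbe were read as ft, Delta, Tl and ths after the files were seen. Alternatives varied the distance limit, the starts, the peaks, the match distance, the list length, the window and the replicates; tests of the start words, of strongest against weakest members and without neighbouring summits were added after seeing the data.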

Additional observations from a re-analysis of the deposited data

How the results depend on the processing

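Of 33 alternative values of the shares, distances, support and percentile, 18 stayed within the replicate spread. Of 128 alternative values of differences over replicates, the mean kept its sign in 118, but 30 of those had moved by more than 1.5 times, and in 10 of the 128 the replicates lost the one sign they had shared. No test could pass a threshold of 0.05, so the kept signs say nothing of significance. With a far limit of 50 bp the members were 13.96% of the peaks, their median distance 33 bp and their median percentile of signal 64.6; with 150 bp they were 39.6% at percentile 68.2. With the most upstream start of each gene only, the share was 24.98%. In the stronger part of the list (50% of peaks) the share was 50.1%, the support by all 3 replicates 98.03% and the percentile 81.7, and without peaks near a stronger summit the share was 38.0%. Support was 72.7% with matches within 50 bp, 58.1% with replicate lists cut to 50% of their length, 96.0% with lists of doubled length and 97.9% with all permissive peaks. Leaving out 1 replicate gave 84.6 to 89.6%, which is support by the 2 that remain and cannot be lower than support by all 3.

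The sign of some small differences in motif share, taken as means over the replicates, turned. For Zeste it was 0.233 points with shorter lists and 0.894 with 150 bp windows, where it was −0.548 with the main settings. The shares in the reproducible list, 11.8% of members and 11.6% of other peaks, also differed in sign from that mean. For the DNA replication-related element against all other peaks it was 0.0564 points with the main settings. It was −0.646 with shorter lists, −0.208 with 50 bp windows, −0.119 without replicate 2 and −0.0450 without neighbouring summits. Leaving out 1 replicate gave −0.119 to 0.168 points. For the E-box against all other peaks (0.442) it was −0.260, −0.699 with the most upstream starts and −0.477 with 50 bp windows. For the TCT initiator (−0.429) it was 0.237 with lists of doubled length. The cause was not tested.

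Leaving out 1 replicate leaves 2 differences, for which 0.5 is the smallest exact permutation p. With 3 replicates of 1 group, and no control library analysed here, every comparison is limited to positions and ranks within a list.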
